A study of Rattus norvegicus with 12 samples.

Results

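The organic ion and drug transporters described here are the genes of the rat organic cation and anion carriers (symbols beginning with Slc22a and Slc47a), the organic anion transporting polypeptides (Slco), and the Abcb, Abcc and Abcg families of ATP-driven pumps. They were chosen by symbol alone, without Slc22a12, Abcb11 and Abcg2, and each gene was represented by the singly named probe set with the highest mean over the 12 arrays. The rule found 49 of the 14217 genes with a singly named probe set. These genes hold 66 of the 31099 probe sets, and 15 of them have more than 1. Another 2 probe sets that name several transporters were left out.

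Messenger RNA was measured on GeneChip Rat Genome 230 2.0 arrays in liver and in renal cortex of male rats aged 7 to 9 weeks, which the labels call F-344 and also Wistar-derived. Treated rats received trichloroethylene (TCE), a chlorinated solvent, by mouth at 16 mg/kg per day for 3 days in corn oil at 5 ml/kg, while control rats were given only the oil. All were killed 24 h after the last dose. The 4 groups were liver TCE, liver control, kidney TCE and kidney control, with 3 arrays each from 3 rats per treatment, and this small number of arrays limits how precise each value is. Whether an equal replicate number in liver and kidney marks the same rat is not stated.

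Most solute carriers of these families bring charged drugs, bile acids, steroid conjugates, prostaglandins and metabolites into hepatocytes and proximal tubule cells. Slc47a1 instead passes cations out, in the kidney into urine. The ATP-driven pumps move drugs, conjugates and lipids out, into bile, urine or blood. Uptake carriers on the blood side and efflux pumps on the bile or urine side work in series. In the kidney the organic anion carriers also take up glutathione-derived conjugates, a class to which products of TCE metabolism belong.

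Values are the deposited log2 expression values, so a difference of 1 unit is a doubling, and levels of different probe sets cannot be compared with each other. Between 27.5% and 29.1% of probe sets on an array sat at a shared lowest value of 2.17. Array medians were 3.51 to 3.54 in liver and 3.88 to 3.96 in kidney, and arrays of a group correlated at 0.993 to 0.997 across probe sets. The tissue labels held against markers. In control rats 7 of 7 measured hepatocyte markers were higher in liver, and 7 of 8 proximal tubule markers were lower in liver than in kidney, the exception being Slc27a2, which was high in both. Kidney control replicate 2 stood apart from the other kidney arrays in hepatocyte markers other than Cyp2e1. Albumin (Alb) was at 10.96, 4.36 and 6.31 in TCE kidneys, against 12.80 on this array and 9.89 and 7.84 in the other control kidneys, and the array's Ttr, Serpina1, Fgb and Cps1 values were also the highest of the kidney arrays. The summed hepatocyte markers spanned 12.51 to 13.05 in TCE kidneys and 11.55 to 13.58 in control kidneys, against 18.23 to 18.27 in control livers. Cyp2e1, which is in these sums, was at 12.63, 12.50 and 12.69 in TCE kidneys and 11.81, 12.16 and 11.40 in control kidneys. It was thus higher in every TCE kidney than in any control kidney, and it made up most of the lowest kidney sums. Kidney control replicate 2 was also the control kidney with the highest Slc5a2 (10.12, against 8.38 and 8.36) and Slc5a12, carriers of the proximal tubule. TCE kidneys had 10.01, 9.32 and 9.71 for Slc5a2 and 8.85, 7.96 and 8.67 for Slc5a12. On these carriers it was the other control kidneys that lay below every TCE kidney. Without kidney control replicate 2, 33 transporters were called between the control tissues, against 34 with it. TCE results in kidney are given below with and without that array.

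Measures of RNA quality and markers of other cell types also differed in mean between TCE and control rats. The drop in signal along the Gapdh transcript, read as its 3' minus its 5' control probe set and wider in degraded RNA (called the Gapdh gap here), was 1.49 ± 0.254 in TCE livers and 0.814 ± 0.0398 in control livers, and 0.655 ± 0.189 in TCE kidneys and 0.971 ± 0.110 in control kidneys (SD, n = 3 each; two-sided exact permutation p = 0.1 in liver and 0.2 in kidney, where 0.1 is the smallest p that 3 against 3 arrays allow). All 5 measured podocyte markers had higher means in TCE than in control kidneys, with 4 at an unadjusted p under 0.05 and none past an adjusted p of 0.05, and their summed level spanned 11.12 to 11.48 in TCE kidneys and 10.68 to 10.88 in control kidneys. The 3 measured erythroid markers were lower in TCE than in control livers, summing to 13.42 to 14.01 and 14.29 to 14.65, each at an unadjusted p under 0.05 and none past the adjusted threshold. Their part in the transporter results was not tested. The Gapdh gap ran from 1.21 to 1.70 in TCE livers and 0.78 to 0.86 in control livers. In kidneys it ran from 0.51 to 0.87 with TCE and 0.85 to 1.05 in controls. Fits below that hold the gap therefore cannot tell it apart from TCE.

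In control rats most transporters differed between liver and kidney. Of 42 members whose mean exceeded the filter on low values (the 40th percentile of probe sets, 2.55 in this fit), 34 (81.0%) differed past an adjusted p of 0.05, 14 higher and 20 lower in liver than in kidney (limma, Benjamini-Hochberg over 10654 genes). Over all genes tested, 68.6% were called, 29.7% higher and 38.9% lower in liver, so most genes at large were called too. The differences were large: the median absolute difference was 2.88 log2 units over the members tested and 0.72 over all genes tested. In all, 17 members, or 40.5% of those tested, differed by more than 4 log2 units (16-fold), 6 higher in liver and 11 higher in kidney, against 9.55% of all genes tested. Slc47a1, Slco1a3, Slc22a13 and Slc22a6 are in both counts, with control liver means of 2.22 to 2.34, under the filter. They could enter the fit only through kidney, so their calls follow in part from the filter. Slco4a1, under it in liver, and Abcg5, under it in kidney, entered likewise but were not called. The same filter held for all genes tested. In whole tissue, fewer cells of a type and less RNA per cell cannot be told apart. TCE arrays, which the control comparison does not use, gave 37 calls among 42 members (15 higher and 22 lower in liver), where 67.6% of 10642 genes were called (30.8% higher and 36.8% lower). Among these calls Slc47a1, Slco1a3, Slc22a13 and Slco4a1 had liver means under the filter, and Abcg5 a kidney mean under it. Of the members called in control arrays 33 were called in TCE arrays too, all with the same sign. The like share over all genes was not counted, so this agreement cannot be read as particular to the transporters.

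**Figure D1:**
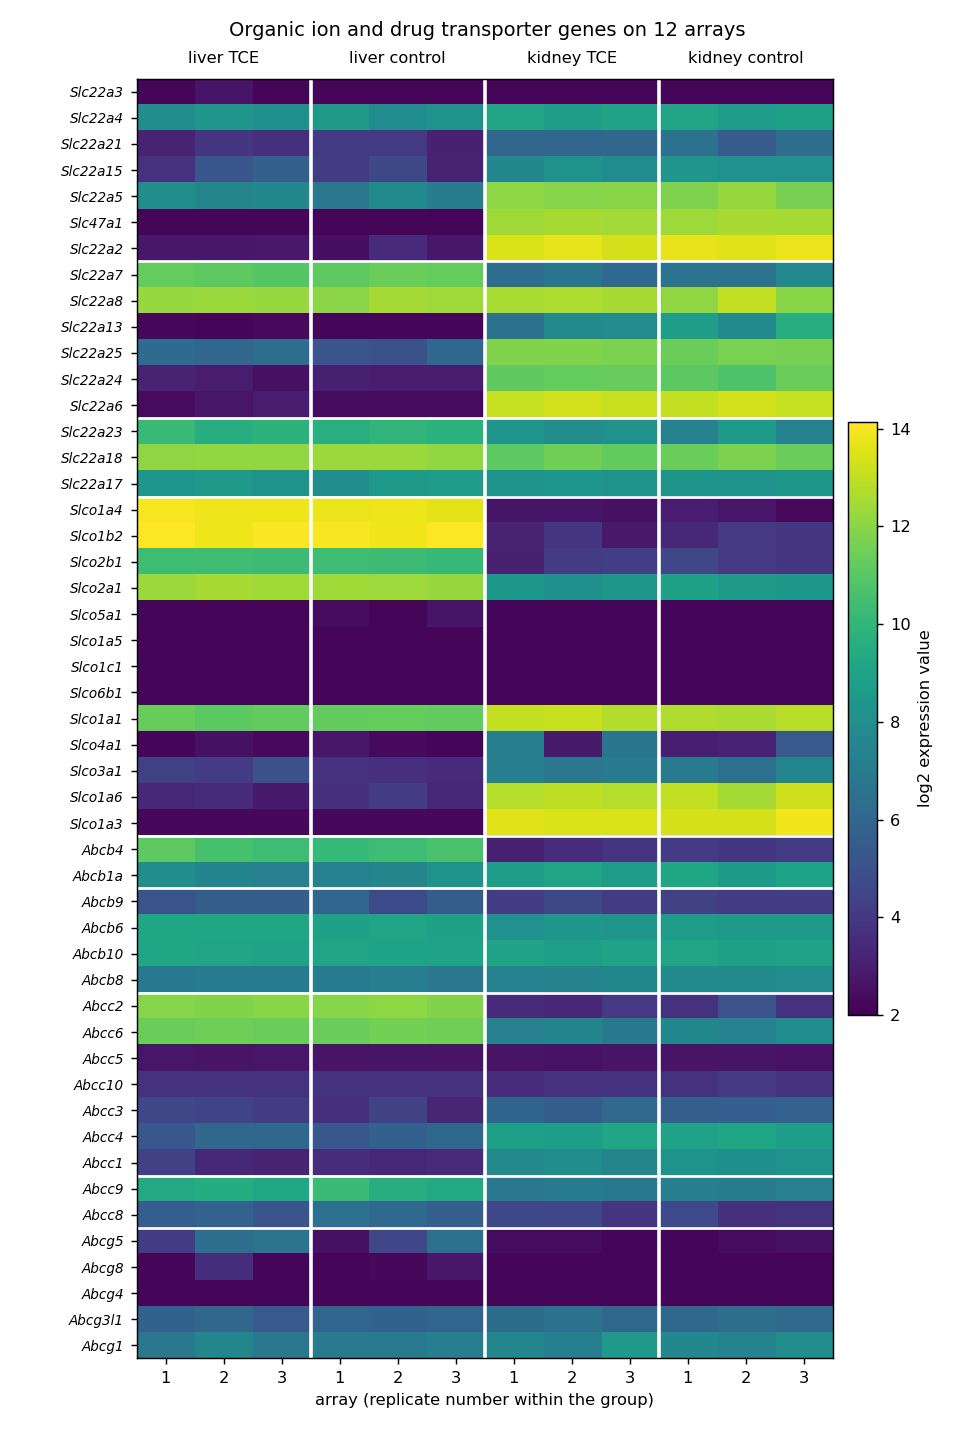
The log2 expression value of each of the 49 transporter genes (rows, grouped by role with white lines between the groups) on each of the 12 arrays (columns, TCE left of control and liver left of kidney), with the colour scale running to the highest values in yellow. Most rows change colour at the border between liver and kidney, whereas TCE and control columns of a tissue look alike; Slc22a2 and Slc22a6 are high in kidney alone, Slco1a4 and Slco1b2 in liver alone.

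Every organic cation and carnitine transporter that was tested (6 of 7 members) was lower in liver than in kidney. Slc22a2 (Oct2), which takes organic cations from blood into proximal tubule cells, had values of 2.48, 3.47 and 2.76 in control livers and 13.72, 13.56 and 13.76 in control kidneys, a difference of −10.78 ± 0.26 (SE; adjusted p = 7.20e-07). Slc47a1 (Mate1), the apical exchanger that passes cations on into urine, sat at its own repeated lowest value of 2.22 on all 6 liver arrays, and control kidneys had 12.35, 12.54 and 12.52. Control kidney was therefore at least 968-fold higher, set against the filter value, and the fitted difference (−10.24) has an SE that is too small because liver showed no spread. Both steps of renal cation secretion were thus high on every kidney array and near the lowest values on every liver array, with no overlap.

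Slc22a5 (Octn2), the carnitine carrier, was at 6.88, 7.80 and 7.14 in control livers and 11.79, 12.27 and 11.65 in control kidneys (−4.63 ± 0.28, adjusted p = 3.28e-05). Its neighbours on chromosome 10 differed less: Slc22a21 (Octn3, a carnitine carrier in mouse) by −2.38 ± 0.40 and Slc22a4 (Octn1, an ergothioneine carrier) by −0.69 ± 0.20. The Slc22a4 difference was called in 8 of 14 settings, with its highest adjusted p (0.231) when arrays were centred on their medians. Slc22a15, known in human as a carrier of zwitterions such as ergothioneine, differed by −4.22 ± 0.36 (adjusted p = 1.34e-04) and varied among livers. Slc22a3 (Oct3), which lies beside Slc22a2 on chromosome 1, sat at the lowest value on 10 of 12 arrays and was not tested.

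The organic anion carriers split. Slc22a6 (Oat1), the blood-side exchanger that loads proximal tubule cells with organic anions, had 2.34 on all 3 control liver arrays and 13.04, 13.30 and 13.08 on control kidney arrays, so that control kidney was at least 1542-fold higher (adjusted p = 2.08e-08, with an SE too small for the reason given for Slc47a1). Slc22a24 differed by −8.07 ± 0.18, with control values of 3.09, 2.95 and 2.95 in liver and 11.08, 10.72 and 11.40 in kidney. Slc22a25 differed by −6.17 ± 0.30, with 5.19, 4.99 and 6.11 in control livers and 11.43, 11.70 and 11.67 in control kidneys. Slc22a24 and Slc22a25 are close relatives, and their values are uncertain as far as probes bind the other's transcript, which was not tested. Slc22a13 (Oat10), an exchanger of urate and nicotinate known from human, had 2.23 on each control liver array and 8.77, 7.78 and 9.54 in control kidneys, at least 70.9-fold higher in kidney.

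Slc22a7 (Oat2) was higher in liver, at 11.13, 11.40 and 11.26 in control livers and 6.64, 6.60 and 7.72 in control kidneys, a difference of 4.28 ± 0.32 (adjusted p = 7.83e-05). Slc22a8 (Oat3), known for its place beside Oat1 in the kidney, did not pass the test: 12.05, 12.48 and 12.41 in control livers and 12.12, 13.01 and 11.97 in control kidneys gave −0.05 ± 0.30 (adjusted p = 0.889), and 0.27 without kidney control replicate 2. Its 2 probe sets disagreed, since the further one averaged 9.89 in control livers and 7.63 in control kidneys. With the mean of both probe sets the difference became 1.10 (adjusted p = 0.0228), so that the call depends on the probe set. In TCE arrays the main probe set was called lower in liver (−0.30, adjusted p = 0.00741), and the further one again averaged higher in liver, at 10.12 against 7.97 in kidney.

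The Slco genes gave the widest contrasts. Of 13 members 9 were tested, 4 of them higher and 4 lower in liver. Of these genes 6 follow each other without another protein-coding gene between them on chromosome 4 (RefSeq, GRCr8), in the order Slco1b2, Slco1a4, Slco1a1, Slco1a3, Slco1a6 and Slco1a5, and their tissue patterns change along that order. RefSeq promoter windows were at hand for 41 of the 49 members, each reaching from 250 bases before to 50 after the start of transcription. The windows of 5 of the 6 neighbours are shown because these genes lie side by side with opposite patterns. They are chr4:176282334-176282633 on the plus strand for Slco1b2, chr4:176495797-176496096 on the minus strand for Slco1a4, chr4:176681943-176682242 on the minus strand for Slco1a1, chr4:176749674-176749973 on the minus strand for Slco1a3 and chr4:176838983-176839282 on the minus strand for Slco1a6, all in GRCr8 and printed 5′ to 3′ along the gene. Each holds the promoter and the first bases of the transcript, and that of Slco1a6 lies inside the annotated gene, at the start of the transcript the table uses. Capitals mark GTTAAT or its reverse complement ATTAAC, letters of the recognition sequence of HNF1, a transcription factor of liver and kidney epithelium.
Slco1b2: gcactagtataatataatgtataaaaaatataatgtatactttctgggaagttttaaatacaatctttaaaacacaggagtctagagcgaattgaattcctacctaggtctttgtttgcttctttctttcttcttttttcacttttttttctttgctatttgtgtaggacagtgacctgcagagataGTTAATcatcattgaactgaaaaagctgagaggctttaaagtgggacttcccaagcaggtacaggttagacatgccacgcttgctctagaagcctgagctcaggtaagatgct
Slco1a4: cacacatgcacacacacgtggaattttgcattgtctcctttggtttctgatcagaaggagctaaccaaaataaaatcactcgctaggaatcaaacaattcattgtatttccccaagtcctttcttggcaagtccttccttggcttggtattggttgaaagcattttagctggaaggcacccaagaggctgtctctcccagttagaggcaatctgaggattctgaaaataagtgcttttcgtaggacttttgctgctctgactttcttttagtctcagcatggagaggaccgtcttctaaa
Slco1a1: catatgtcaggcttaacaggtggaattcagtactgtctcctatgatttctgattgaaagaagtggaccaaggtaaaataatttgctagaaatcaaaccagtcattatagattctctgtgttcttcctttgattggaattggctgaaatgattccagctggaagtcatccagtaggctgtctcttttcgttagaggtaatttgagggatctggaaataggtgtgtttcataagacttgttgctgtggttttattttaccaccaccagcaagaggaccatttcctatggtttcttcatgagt
Slco1a3: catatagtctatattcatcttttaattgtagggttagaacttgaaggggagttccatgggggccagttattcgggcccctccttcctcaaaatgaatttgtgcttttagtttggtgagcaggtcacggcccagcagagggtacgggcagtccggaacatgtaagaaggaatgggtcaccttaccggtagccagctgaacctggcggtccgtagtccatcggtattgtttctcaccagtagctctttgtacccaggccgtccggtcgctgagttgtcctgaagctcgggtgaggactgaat
Slco1a6: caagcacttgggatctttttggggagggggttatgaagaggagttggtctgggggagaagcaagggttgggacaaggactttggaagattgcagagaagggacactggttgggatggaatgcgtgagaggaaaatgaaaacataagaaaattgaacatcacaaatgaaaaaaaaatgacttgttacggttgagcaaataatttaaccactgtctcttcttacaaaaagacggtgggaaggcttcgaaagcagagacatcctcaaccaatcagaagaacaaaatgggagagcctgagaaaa

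Slco1b2 (Oatp1b2), the hepatocyte carrier of bile acids and many drugs, had 14.01, 13.89 and 14.14 in control livers and 3.38, 4.01 and 3.90 in control kidneys, a difference of 10.25 ± 0.18 (adjusted p = 2.26e-07). Slco1a4 (Oatp1a4), which carries bile acids and digoxin, had 13.80, 13.84 and 13.63 in control livers and 2.96, 2.72 and 2.31 in control kidneys, a difference of 11.09 ± 0.18 (adjusted p = 1.50e-07). In both, all liver values lay far above all kidney values. Slco1a1 (Oatp1a1), the next gene, was high in both tissues, at 11.22, 11.25 and 11.20 in control livers and 12.71, 12.61 and 12.84 in control kidneys (−1.50 ± 0.08, adjusted p = 2.04e-05, 2.82-fold).

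Past Slco1a1 the pattern turned. Slco1a3, whose rat product is known as a kidney-specific carrier of methotrexate and other organic anions (Oat-k), sat at its own lowest value of 2.24 on every liver array and had 13.37, 13.36 and 13.86 in control kidneys, at least 2020-fold higher. Slco1a6 (Oatp1a6) had 3.65, 4.14 and 3.38 in control livers and 13.01, 12.52 and 13.27 in control kidneys (−9.21 ± 0.27, adjusted p = 1.46e-06). Slco1a5, the last of the row, sat at the shared lowest value on all 12 arrays. Since the Slco1a genes are close relatives, their values are uncertain as far as probes bind a relative's transcript, which was not tested. Slco1a4 in kidney and Slco1a3 in liver were low on arrays where relatives stood at 12 or more.

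**Figure D2:**
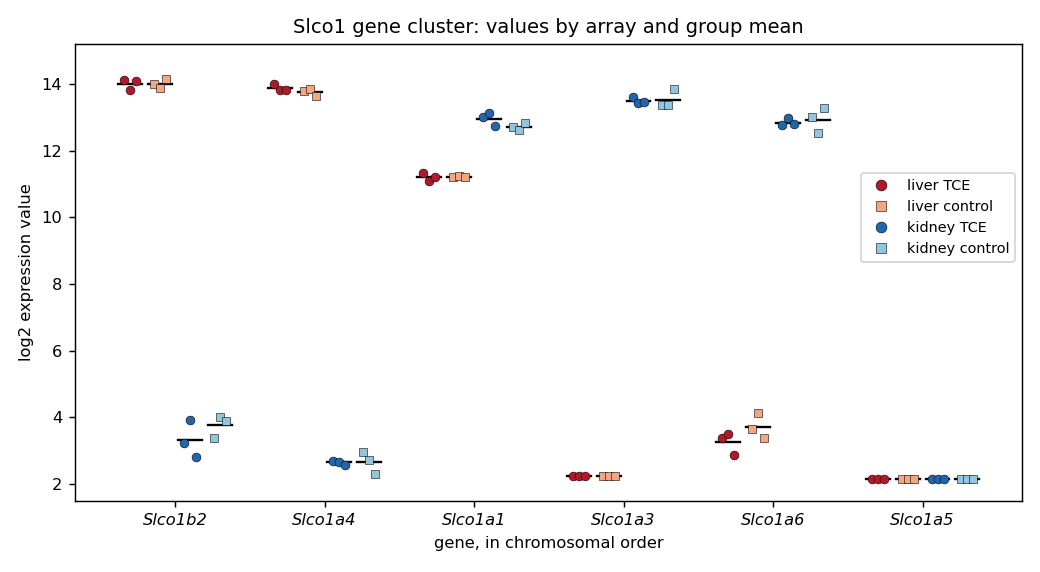
Log2 expression value (vertical axis) of the 6 neighbouring Slco1 genes in their order on chromosome 4 (horizontal axis); points are single arrays of the 4 groups, 3 per group, and bars are group means. Slco1b2 and Slco1a4 are near 14 in liver and below 5 in kidney, Slco1a1 is high in both tissues, Slco1a3 and Slco1a6 are near 13 in kidney and below 5 in liver, and Slco1a5 is at 2.17 throughout.

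Outside that row, Slco2b1 (Oatp2b1), a carrier of steroid sulphates, was higher in liver by 6.07 ± 0.20, and Slco2a1, the prostaglandin transporter, by 3.69 ± 0.13. Further probe sets pointed the same way, by 3.95 for Slco2b1 and 5.84 for Slco2a1. Slco3a1, also a carrier of prostaglandins, was lower in liver, by −3.37 ± 0.29. Slco4a1, a thyroid hormone carrier, ranged over 2.24 to 2.73 in control livers and had 3.02, 3.16 and 5.39 in control kidneys and did not pass the test (adjusted p = 0.0982). Of 11 further probe sets above the filter, 9 belong to members called between the control tissues. Of these, 8 had the sign of the main probe set, the exception being one of Abcg1 (0.21, against −0.64).

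Of the multidrug pumps at the plasma membrane, Abcb4 (Mdr2), which moves phosphatidylcholine into bile, had 10.13, 10.39 and 10.65 in control livers and 4.13, 3.98 and 4.10 in control kidneys (6.32 ± 0.14, adjusted p = 5.66e-07). Abcb1a, a P-glycoprotein that expels many drugs and lies near Abcb4 on chromosome 4, ran the other way, with 7.36, 7.53 and 8.21 in control livers and 9.11, 8.60 and 9.04 in control kidneys (−1.22 ± 0.26, adjusted p = 0.00750). The lipid pump was thus high in liver alone, and the drug pump was measured in both. Of the organelle transporters 3 of 4 were called: mitochondrial Abcb8 by −0.79 ± 0.11, the lysosomal peptide transporter Abcb9 by 1.18 ± 0.31 and the porphyrin transporter Abcb6 by 0.37 ± 0.07. Abcb9 was called in 10 of 13 settings, with an adjusted p of up to 0.0572. Mitochondrial Abcb10, at 0.03 ± 0.07, did not pass.

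The Abcc pumps expel conjugates of glutathione, glucuronate and sulphate. Abcc2 (Mrp2), which does so into bile and urine, had 11.95, 12.06 and 11.82 in control livers and 3.79, 5.11 and 3.76 in control kidneys (7.72 ± 0.38, adjusted p = 1.30e-05). The highest of these kidney values came from kidney control replicate 2. Abcc6 (Mrp6), an ATP-releasing transporter of the hepatocyte, was higher in liver by 3.87 ± 0.15. Other pumps were higher in kidney: Abcc1 (Mrp1), known from the blood-side membrane of many cells, differed by −4.70 ± 0.09 (3.53, 3.33 and 3.49 in control livers, 8.23, 8.05 and 8.17 in control kidneys), Abcc4 (Mrp4) by −3.24 ± 0.21 and Abcc3 (Mrp3) by −1.95 ± 0.29. Abcc5 and Abcc10 were low in both tissues and did not pass. The sulphonylurea receptors, subunits of ATP-sensitive potassium channels rather than pumps, were both higher in liver, Abcc9 by 2.53 ± 0.24 and Abcc8 by 2.06 ± 0.32.

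Abcg5 and Abcg8, the partners of the sterol pump that loads cholesterol into bile, are named here because they are classical liver transporters, but their probe sets were low or variable. Abcg5 had 2.54, 4.60 and 6.42 in control livers and 2.17, 2.34 and 2.54 in control kidneys. All kidney values lay under the filter. In controls liver was at least 3.93-fold higher, which did not pass (adjusted p = 0.0856), and the fitted log2 difference of 2.17 ran from 1.22 to 3.16 when 1 array was left out. In TCE rats, at 4.09, 6.40 and 6.69 in liver and 2.34, 2.34 and 2.17 in kidney, liver was at least 9.11-fold higher (adjusted p = 0.00542). The difference between the TCE and the control contrast of the tissues did not pass for Abcg5 (1.27 ± 1.24, adjusted p = 0.630). Abcg8 reached at most 3.58 on a liver array and 2.19 in kidney, under the filter in every fit but that of liver. The windows of these neighbours on chromosome 6, which are transcribed away from each other, share 295 of 300 bases. Abcg1, a cholesterol exporter, was lower in liver by −0.64 ± 0.16 (adjusted p = 0.0148), a call lost with the mean of its probe sets (adjusted p = 0.460).

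The remaining Slc22a members are orphans or receptors. Slc22a23 was higher in liver by 1.99 ± 0.37 and Slc22a18, an imprinted gene of unsettled substrate, by 0.76 ± 0.12, while Slc22a17, known as a lipocalin receptor, did not pass (0.09 ± 0.20). Abcg4, Slc22a3, Slco1a5, Slco1c1, Slco5a1 and Slco6b1 stayed under the filter in every fit, at 2.71 or less on all arrays, and 4 of these 6 sat at the shared lowest value throughout. Slco1c1 is known as the thyroxine carrier of the blood-brain barrier.

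Slc22a8, its neighbour Slc22a25 and Slc22a24, which lies in the same row of genes on chromosome 1, are shown for comparison, since Slc22a24 and Slc22a25 were lower in liver than in kidney on every array while Slc22a8 was high in both tissues. The windows are chr1:214394632-214394931 on the minus strand for Slc22a24, chr1:214862291-214862590 on the minus strand for Slc22a25 and chr1:214927034-214927333 on the plus strand for Slc22a8, with capitals as above. Those of Slc22a25 and Slc22a8 lie inside the annotated genes, at the starts of the transcripts used.
Slc22a24: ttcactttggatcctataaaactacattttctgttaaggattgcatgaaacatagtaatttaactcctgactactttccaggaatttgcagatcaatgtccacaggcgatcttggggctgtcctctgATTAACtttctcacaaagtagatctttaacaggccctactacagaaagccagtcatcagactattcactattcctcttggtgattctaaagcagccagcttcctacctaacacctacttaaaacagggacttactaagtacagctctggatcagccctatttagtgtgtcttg
Slc22a25: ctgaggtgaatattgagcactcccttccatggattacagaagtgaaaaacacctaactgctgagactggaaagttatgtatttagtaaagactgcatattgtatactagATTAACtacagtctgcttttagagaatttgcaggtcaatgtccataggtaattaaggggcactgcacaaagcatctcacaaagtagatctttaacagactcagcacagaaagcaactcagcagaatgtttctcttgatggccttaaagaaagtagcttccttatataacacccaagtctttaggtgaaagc
Slc22a8: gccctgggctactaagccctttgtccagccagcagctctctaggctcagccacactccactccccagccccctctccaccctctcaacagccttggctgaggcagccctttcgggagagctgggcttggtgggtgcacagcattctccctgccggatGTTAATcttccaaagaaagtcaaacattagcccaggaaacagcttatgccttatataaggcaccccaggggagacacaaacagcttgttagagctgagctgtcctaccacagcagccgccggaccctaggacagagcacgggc

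All 3 hold the HNF1 letters, at 123, 141 and 93 bases before the start of transcription. The windows of Slc22a24 and Slc22a25 share an unbroken run of 24 bases, the longest among the printed windows, where the other pairs share at most 11. GTTAAT on either strand occurred in 5 of 41 member windows (these 3, Slco1b2 at 63 bases and Abcc2 at 100 bases before the start) and in 7.46% of 33365 distinct rat windows. Thus members high in liver (Slco1b2, Abcc2), in kidney (Slc22a24, Slc22a25) and in both (Slc22a8) hold it, and Slco1a4, Slco1a1, Slco1a3 and Slco1a6 do not. The letters AGGTCA, part of nuclear receptor sites, occurred in 9 of 41 member windows and in 16.2% of all, and the TATA box letters TATAAA in 7 of 41 and in 14.2%. The TATAAA of Abcg5 and that of Abcg8 are the same bases of their shared stretch, read on opposite strands and counted for both. Such a match is a description of the letters in these windows and shows neither binding nor its absence.

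In liver no transporter passed an adjusted p of 0.05 between TCE and control rats, and neither did any of the 10552 genes tested (limma, 0%). Slco3a1 alone of 39 members tested (2.56%) had an unadjusted p under 0.05, where 14.7% of all genes did, 8.81% higher and 5.84% lower. Values of TCE and control livers did not overlap in 3 members, Slco3a1 and Abcb6 (higher) and Slc22a18 (lower), against 20.5% of all genes (12.2% higher and 8.31% lower). The median absolute difference was 0.12 over members tested and 0.15 over all genes tested.

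Slco3a1 was at 4.28, 4.09 and 5.03 in TCE livers and 3.77, 3.70 and 3.47 in control livers, a difference of 0.82 ± 0.26 (unadjusted p = 0.0242, adjusted p = 0.279). All TCE values lay above all control values, but its further probe set, near the lowest values, differed by −0.02. Over the alternatives the difference ran from 0.40 with the mean of its probe sets to 2.04 with the Gapdh gap in the fit, and it was 0.54 without liver TCE replicate 3. Its unadjusted p was 0.0574 without liver control replicate 2, 0.0764 without liver control replicate 3 and 0.0585 with the replicate block. The main hepatocyte uptake carriers did not pass the test: Slco1b2 had 14.12, 13.82 and 14.08 in TCE livers, against 14.01, 13.89 and 14.14 in control livers (−0.01 ± 0.12). Slco1a4 differed by 0.12 ± 0.09, Slco1a1 by −0.01 ± 0.08, Slc22a7 by −0.15 ± 0.11 and Slc22a8 by −0.04 ± 0.13. These values of the carriers of the blood side overlapped between the groups.

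The pumps of the bile side did not pass either, with Abcc2 at 11.92, 11.84 and 11.99 in TCE livers and 11.95, 12.06 and 11.82 in control livers (−0.03 ± 0.09) and Abcb4 at 11.11, 10.61 and 10.37 in TCE livers and 10.13, 10.39 and 10.65 in control livers (0.31 ± 0.23). Leaving out 1 array gave 0.10 to 0.47 for Abcb4, and the Gapdh gap in the fit −0.67. The larger differences belonged to variable members. Abcg5 gave 1.20 ± 1.19 (adjusted p = 0.674), and leaving out liver control replicate 1, its lowest value, left 0.21. Slc22a15 gave 0.94 ± 0.64, Slc22a25 0.77 ± 0.32, Abcc3, the blood-side pump of conjugates, 0.62 ± 0.32, and Abcc8 −0.56 ± 0.24, with adjusted p-values of 0.348 to 0.536 for the 4 genes. The pooled SD among rats of a group was 1.70 for Abcg5 and 0.91 for Slc22a15, where the median over members tested was 0.26 and over all genes tested 0.17.

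In liver 3 further probe sets had an unadjusted p under 0.05 where the main one differed by less and the other way. The further probe set of Slco2a1 averaged 8.52 in TCE livers and 9.22 in control livers, a difference of −0.70 (unadjusted p = 8.56e-04), while the main one differed by 0.08. The further probe set of Slco2b1 averaged 6.40 in TCE livers and 7.00 in control livers (−0.60, unadjusted p = 0.0286), while the main one differed by 0.09. The further probe set of Abcb10 differed by −0.22 (unadjusted p = 0.0341), while the main one differed by 0.06. The wider Gapdh gap of TCE livers stands beside all 3, and its part was not tested.

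In kidney, too, no transporter and none of the 10563 genes tested (0%) passed an adjusted p of 0.05 (limma). Of 41 members tested 5 (12.2%) had an unadjusted p under 0.05, all lower in TCE kidneys, where 14.8% of all genes did, 7.56% higher and 7.26% lower. The groups did not overlap in 7 members, 6 of them lower, against 20.1% of all genes (10.3% higher and 9.81% lower). The median absolute difference was 0.19 over members tested and 0.14 over all genes tested. The 5 genes, a share under that of all genes, were Abcb8, Abcc9, Abcb6, Abcb4 and Abcc1. Which members had an unadjusted p under 0.05 changed with the setting, and Slc22a13 joined them with quantile normalization or median centring.

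Mitochondrial Abcb8 was at 7.31, 7.45 and 7.57 in TCE kidneys and 7.78, 7.74 and 7.86 in control kidneys, a difference of −0.35 ± 0.09 (unadjusted p = 0.00763, adjusted p = 0.253). Abcc9, the channel subunit, was at 6.81, 7.02 and 6.90 in TCE kidneys and 7.22, 7.11 and 7.29 in control kidneys (−0.30 ± 0.08, adjusted p = 0.263), and its further probe set differed by −0.24. In these 2 genes alone of the 41 tested the unadjusted p stayed under 0.05 whichever kidney array was left out. Abcb6 was at 8.16, 8.49 and 8.34 in TCE kidneys and 8.65, 8.61 and 8.62 in control kidneys (−0.30 ± 0.10, adjusted p = 0.285).

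Abcb4 was low in kidney, at 3.06, 3.56 and 3.81 in TCE kidneys and 4.13, 3.98 and 4.10 in control kidneys (−0.60 ± 0.20, adjusted p = 0.289). Abcc1 was at 7.73, 7.99 and 7.51 in TCE kidneys and 8.23, 8.05 and 8.17 in control kidneys (−0.41 ± 0.14, adjusted p = 0.290). In all 5 genes every TCE value lay below every control value. Without kidney control replicate 2 the 5 differences ran from −0.64 in Abcb4 to −0.30 in Abcb6, with Abcb6 at an unadjusted p of 0.0538. With the Gapdh gap in the fit, Abcb8 differed by −0.34, Abcb4 by −0.55, Abcb6 by −0.14, Abcc9 by −0.13 and Abcc1 by −0.06, each at an unadjusted p above 0.05. That fit cannot tell the gap apart from TCE, since the gap itself differed in mean between the groups.

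None of the classical renal uptake and efflux carriers had an unadjusted p under 0.05. Slc22a6 had 13.08, 13.32 and 13.12 in TCE kidneys and 13.04, 13.30 and 13.08 in control kidneys (0.03 ± 0.11). Slc22a2 differed by −0.19 ± 0.11, Slc47a1 by 0.00 ± 0.08, Slco1a3 by −0.03 ± 0.16, Slco1a6 by −0.09 ± 0.20, Slco1a1 by 0.24 ± 0.12 and Abcc4 by −0.06 ± 0.14. Without kidney control replicate 2 the 7 differences ran from −0.29 in Slco1a6 to 0.18 in Slco1a1, again none at an unadjusted p under 0.05. Slco1a1 reached an unadjusted p under 0.05 with the Gapdh gap in the fit (0.51) and without kidney TCE replicate 3 (0.35). Slc22a2 did so without kidney TCE replicate 2. On Slc22a8 the stand-apart array mattered: TCE kidneys had 12.57, 12.62 and 12.54, and the difference was 0.21 ± 0.28 with kidney control replicate 2 and 0.53 ± 0.08 without it (adjusted p = 0.747 and 0.199). Without that array 10 members had an unadjusted p under 0.05, 4 higher and 6 lower in TCE kidneys, among them Slc22a23 (0.81) and Slc22a21 (−0.49). Without kidney TCE replicate 2 there were 9, and without kidney control replicate 1 or 3 there were 2 and 3; none passed the adjusted threshold in any of these fits.

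Among the variable kidney members, Slc22a13 was at 6.57, 7.74 and 7.83 in TCE kidneys and 8.77, 7.78 and 9.54 in control kidneys (−1.32 ± 0.56, adjusted p = 0.354), and −1.78 without kidney control replicate 2 (unadjusted p = 0.0186, adjusted p = 0.271). Slco4a1 was at 7.24, 2.86 and 6.73 in TCE kidneys and 3.02, 3.16 and 5.39 in control kidneys, a difference of 1.76 ± 1.34 (adjusted p = 0.565) that depended on single arrays. Leaving out kidney TCE replicate 2 gave 3.13 and leaving out its fellow replicate 1 gave 0.94, while the Gapdh gap in the fit gave −0.57 and leaving out kidney control replicate 2 gave 1.41. On this main probe set both groups of Slco4a1 thus held low and high values. The further probe set of Slco4a1 sat at the shared lowest value of 2.17 on every array of both tissues. It therefore cannot show whether the spread lies among the rats or in the main probe set. Abcc2 differed by −0.59 ± 0.42, and by −0.15 without kidney control replicate 2. Over the alternatives that kept all arrays its difference ran from −1.47 to −0.58. With the Gapdh gap in the fit its unadjusted p was under 0.05, while its lowest adjusted p over all settings was 0.461. The pooled SD among rats of a group was 1.94 for Slco4a1 and 0.80 for Slc22a13, against a median of 0.22 over members tested and 0.15 over all genes tested.

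**Figure D3:**
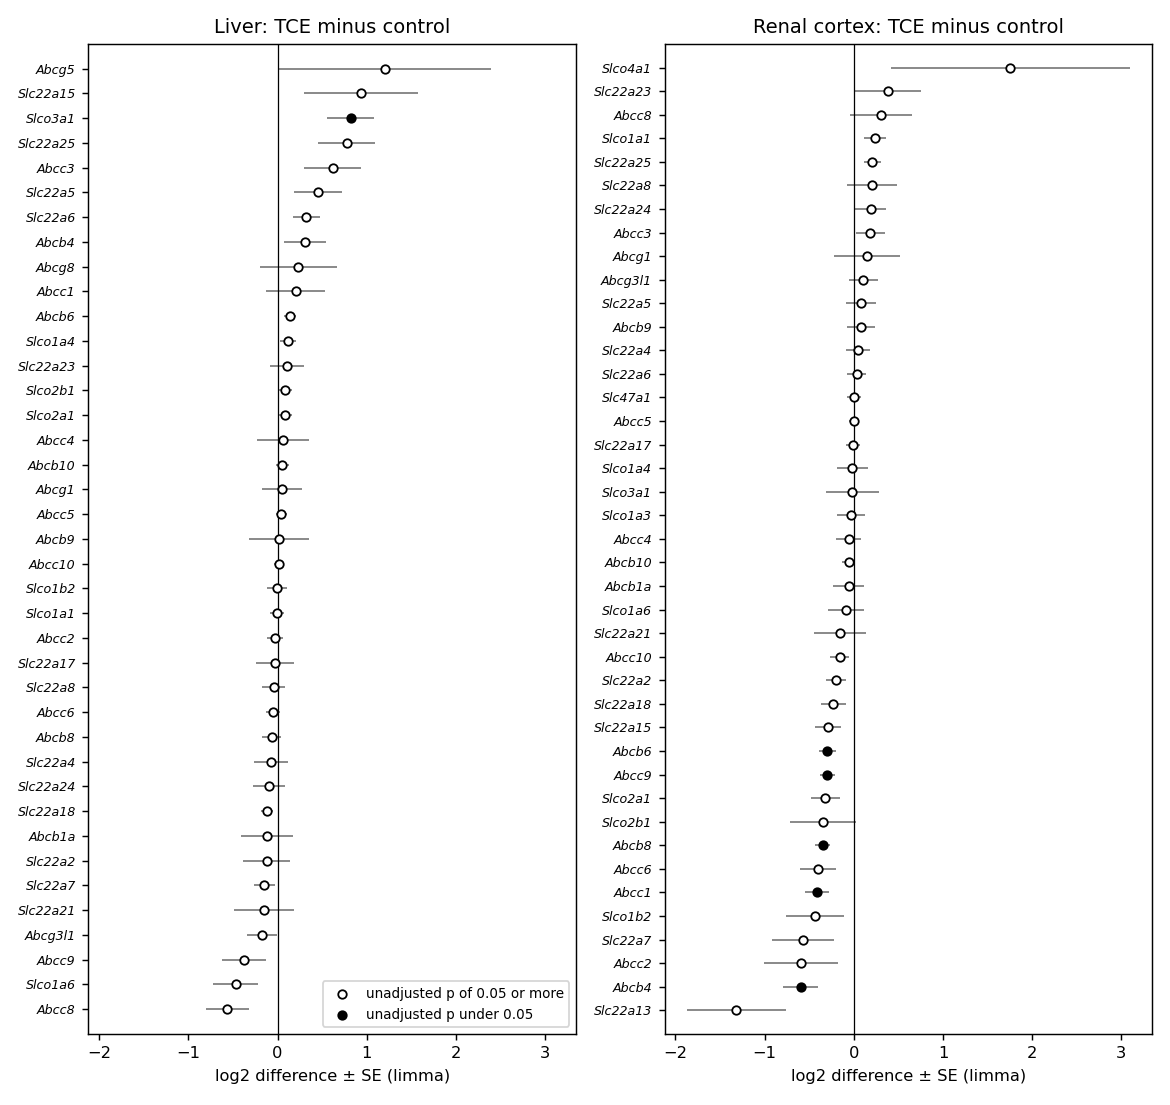
TCE minus control difference (horizontal axis, log2 units, point) with its standard error (line, limma) for each tested transporter, 39 in liver (left) and 41 in renal cortex (right), sorted by size; filled points have an unadjusted p under 0.05. One gene in liver (Slco3a1, 0.82) and 5 in kidney (−0.30 to −0.60) are filled, and the widest lines belong to Abcg5 in liver and Slco4a1 in kidney.

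**Figure D4:**
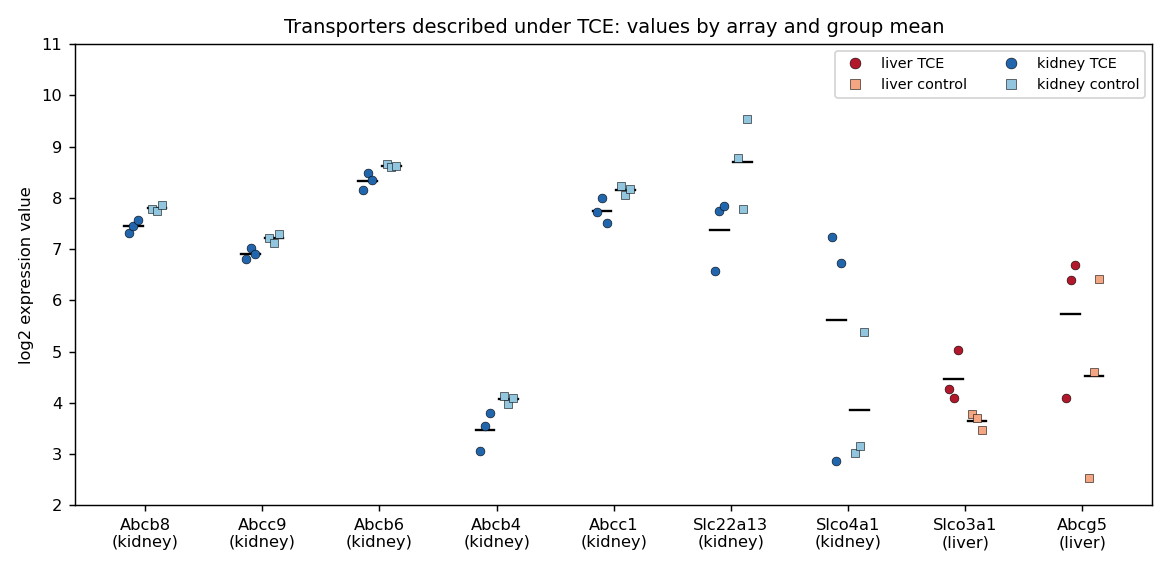
Log2 expression value (vertical axis) of the transporters with the smallest p or the widest spread under TCE, in the tissue named under each symbol; points are single arrays, circles for TCE and squares for control, with bars for group means. The first 5 genes have TCE points below all control points, Slco3a1 has them above, and the TCE and control points of Slc22a13, Slco4a1 and Abcg5 overlap.

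The difference between the TCE effect in liver and that in kidney was tested over all 12 arrays. No member of 42 tested passed, while 57 of 10652 genes (0.535%) did. Cell type markers that passed were 1 of 5 podocyte and 1 of 3 erythroid markers, both lower, and 1 of 6 mesenchyme markers, higher. With the replicate block no gene passed. At an unadjusted p under 0.05 there were 3 members (7.14%), where 17.5% of all genes were (9.99% higher and 7.48% lower): Abcb6 (0.43 ± 0.13, adjusted p = 0.137), Abcb4 (0.90 ± 0.32, adjusted p = 0.193) and Slc22a13 (1.34 ± 0.58, adjusted p = 0.275). In each the TCE difference was higher in liver than in kidney. Slc22a13 lay under the filter in liver, at 2.23 to 2.28 on all 6 arrays, so that its value restates the kidney difference. Without kidney control replicate 2 there were 6 such members, and Slc22a13 was at 1.80. Slco2a1 (0.40) and Slco3a1 (0.84) came next in that direction and Abcc8 (−0.87) in the other.

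Regulators and partners of these genes, on lists that hold no member, gave values beside them. Of 14 measured regulators of transporter genes, 13 were tested between the control tissues, 10 of them higher in liver and 1 lower, where 29.7% of all genes were called higher and 38.9% lower. Those higher include the xenobiotic receptors Nr1i2 (Pxr, 4.69) and Nr1i3 (Car, 7.09). Foxa2 differed by 8.10 and Nr5a2 by 7.37, and Hnf4a was lower in liver (−0.56). No regulator passed the adjusted threshold under TCE: in liver Hnf4a differed by 0.40 ± 0.12 (adjusted p = 0.266) and Nr1i3 by −0.27 ± 0.10 (adjusted p = 0.322), and in kidney Nfe2l2, which drives Abcc genes under electrophile stress, by 0.18 ± 0.07 (adjusted p = 0.326). Of 9 scaffolds and partners that anchor or feed the carriers, 7 were lower in liver than in kidney and 2 higher, against the same shares of all genes. Slc13a3, which supplies the dicarboxylates that Oat1 and Oat3 exchange, differed by 0.65 ± 0.11 in TCE against control livers (adjusted p = 0.145).

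Among 16 other measured carriers of the same substrates, the efflux pump Abcg2 was lower with TCE in both tissues at an unadjusted p under 0.05, by −0.52 ± 0.20 in liver and −0.30 ± 0.10 in kidney (adjusted p = 0.325 and 0.299). The urate and phosphate carrier Slc17a1 differed by −0.53 ± 0.09 in liver and 0.45 ± 0.13 in kidney (adjusted p = 0.145 and 0.260), and the urate carrier Slc2a9 by 0.51 ± 0.14 in liver (adjusted p = 0.239). The difference of these effects for Slc17a1 was −0.98 ± 0.17 (adjusted p = 0.0401), the 1 call among 15 of these carriers tested, where 0.535% of all genes were called. This call was not kept in every setting: no gene was called for this difference with the replicate block or in the left-out-array fit with the fewest calls. None of the 3 lists held a call past the adjusted threshold for TCE in either tissue.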

How the data were processed

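The values analysed are those deposited by the authors, on a log2 scale (read from their range, 2.17 to 16.5), for 31099 probe sets on 12 arrays. The submitters' processing notes name affy and limma; how background, normalization and summary were done is not given in the sources used here. Per the labels' protocols, RNA was isolated with Trizol and RNeasy columns, and biotin-labelled complementary RNA was hybridised. Samples were grouped by tissue and by treatment as their titles mark them. Symbols came from the platform annotation at GEO, which gives 1 symbol to 20832 probe sets, several to 436 and none to 9831. The 57 control probe sets did not enter the fits. RefSeq GRCr8 supplied gene order and promoter windows.

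Each comparison was fitted by lmFit and eBayes of limma 3.58.1 under R 4.3.3 (two-sided, Benjamini-Hochberg over all genes of the fit, threshold 0.05) on the deposited values, for genes whose mean over the fit's arrays exceeded the 40th percentile of probe sets (2.45 in liver, 2.43 in kidney, 2.54 and 2.55 across tissues). SE is limma's moderated standard error. Where a group lay under that value, "at least" gives the fold of the other group over it. The fits were tested on simulated data. Genes named are those with an unadjusted p under 0.05 for TCE (up to 12 a tissue), the 10 largest calls each way between control tissues, the 6 smallest p for the difference of effects, preset classical members and up to 3 genes per tissue of each list; others were chosen after their values were seen. Members and lists were chosen with earlier results of these data known. Whether equal numbers mark the same rat is not stated, so the main fits used no replicate block. Deviations of liver and kidney arrays with equal numbers correlated at −0.01 to 0.06 in TCE and 0.05 to 0.08 in control rats. With unequal numbers they correlated at −0.07 to 0.05 and −0.06 to −0.01, which does not settle the pairing. Alternatives were other filters, quantile normalization, median centring, the mean of probe sets, trend and robust variances, the block, all 12 arrays, the Gapdh gap and leaving out each array.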

Additional observations from a re-analysis of the deposited data

Results flagged for a closer look

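Abcb6, the porphyrin transporter, differed in opposite directions in the tissues: all 3 TCE livers lay above all control livers (0.13, adjusted p = 0.412) and all 3 TCE kidneys below all control kidneys (−0.30, adjusted p = 0.285), neither past the threshold (limma). The difference between these effects was 0.43 and was tested over all 12 arrays, with an adjusted p of 0.137 (limma, Benjamini-Hochberg), so it did not pass the threshold. It spanned 0.34 to 0.51 when each array was left out in turn.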

How the results depend on the processing

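No transporter passed an adjusted p of 0.05 for TCE in liver, TCE in kidney or the difference of effects under any alternative run. Counts over all genes did move: in liver 17 with no filter, 138 with all 12 arrays and 0 to 1 when each array was left out, and in kidney 2 with no filter, 1 with the 60th percentile filter or with trend and robust variances, 10 with all 12 arrays and 0 when each array was left out. The 57 genes of the difference of effects became 0 with the replicate block and 0 to 108 when each array was left out. Whether equal numbers pair these arrays is not stated. Members at an unadjusted p under 0.05 numbered 1 in liver, against 2 with no filter, the 60th percentile filter, quantile normalization, median centring or trend and robust variances, 3 with the mean of probe sets, 4 with the replicate block, all 12 arrays or the Gapdh gap, and 1 to 3 when each array was left out. In kidney they numbered 5, against 3 with the Gapdh gap and 2 to 10 when each array was left out, and for the difference of effects 3, against 2 to 6. The difference of effects of Slco2a1 reversed to −0.054 with the mean of its probe sets. Between control tissues the 34 members called became 28 to 36 under other settings and 32 to 36 when each array was left out, and between TCE tissues the 37 became 28 to 38 and 35 to 36. Median centring put the median of all genes at 0.32, against −0.10, and the split of calls at 18 higher and 18 lower in liver, against 14 and 20. Between TCE tissues that split was 19 and 19, against 15 and 22. Over all settings, left-out arrays included, 38 of 42 members kept their sign between control tissues and 40 of 42 between TCE tissues, where called Slc22a8 was 1 of the exceptions. For TCE 15 of 39 kept it in liver, 15 of 41 in kidney and 27 of 42 in the difference of effects. The cause of these changes was not tested. With 3 arrays a group, small differences could not be seen, and probe sets near the lowest value have little room to fall.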
